A study of Mus musculus with 24 samples.

Results

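Klf4 binding was set side by side in mitotic and asynchronous mouse embryonic stem cells, from 6 peak lists of chromatin immunoprecipitation followed by sequencing (ChIP-seq), 3 from mitotic and 3 from asynchronous cells. The 6 libraries were chosen by their labels, out of 24 samples of which 17 had a peak list, and a seventh Klf4 library made from a mix with neural progenitors was left out. All 6 came from V6.5, a stem cell line of mixed C57BL/6 and 129 background derived from blastocysts, grown on irradiated feeder fibroblasts with serum and LIF and moved to gelatin with 2 kinase inhibitors (PD98059 and Chir99021) before synchronization. The mitotic cells had been given nocodazole, which blocks the spindle, for 7 h at a labelled 100 ug/ml, and were shaken off the plate. The asynchronous cells had no such arrest, and thus held cells of every phase, mitosis included. Both states were fixed with 1% formaldehyde for 10 min and precipitated with the same Klf4 antibody (R&D AF3158). Mitotic libraries 1 and 2 carried the project code DG-3514 and mitotic library 3 the code EA-3702. Asynchronous libraries 1, 2 and 3 carried the codes EA-2697, EA-2643 and EA-3702. Only project EA-3702 therefore held both states, and elsewhere state and project cannot be told apart. Whether the libraries came from separate cultures was not stated, so the spread between them may be partly technical.

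Klf4 is a zinc finger transcription factor of the Krüppel-like family that binds GC-rich sites with a GGGNGTGG core and helps to maintain naive pluripotency together with Oct4 and Sox2. It also acts in epithelia, where it is needed for the skin barrier. In mitosis chromosomes condense, most transcription stops and many transcription factors leave chromatin, while some stay bound at a subset of their sites, which is known as mitotic bookmarking. H3K27ac, an acetylated lysine of histone H3, marks active promoters and enhancers, and its 2 mitotic and 2 asynchronous lists served here to describe the Klf4 sites. The label of the cells was looked at on the same mark, in lists of projects DG-3514 (mitotic) and DG-3458 (asynchronous). Only mitotic Klf4 libraries 1 and 2 shared a project with these lists. The Klf4 libraries themselves were therefore not checked directly. Of 12 embryonic stem cell marker genes, 11 had H3K27ac at a gene end in both mitotic lists and 11 in both asynchronous lists, with Esrrb the exception in each. Of 19 fibroblast markers 2 did so in mitotic cells (Fn1 and Zeb1) and 3 in asynchronous cells (Fn1, Zeb1 and Twist1). Of 14 neural progenitor markers 1 did so in mitotic cells (Sox1) and 5 in asynchronous cells (Nes, Sox1, Olig2, Msi1 and Tubb3). The share of all genes with H3K27ac at a gene end is not given here.

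The site that Klf4 recognizes was read in promoters bound in all 6 lists. Promoter windows were the 300 bases from 250 before to 50 after an annotated start, and the sequences are those of RefSeq on GRCm38.p6, whose coordinates are those of mm10. Among the gene lists used below, 11 windows overlapped a peak in all 6 lists. Of these, 6 had GGGNGTGG on either strand within the 250 bases before the start. The 6 include both windows of Nanog, which overlap and share a match. Over all genes, 51.5% of 398 windows in all 6 lists held the motif within their full 300 bases. The 250 bases are given for the 5 genes concerned, as the bound sequences of naive pluripotency (Nanog, Nr5a2, Zfp42), of the Klf family (Klf13) and of the mitotic machinery (Birc5). Capitals mark GGGNGTGG or its complement, and each sequence reads 5′ to 3′ in the direction of the gene. Nanog (a homeobox factor of naive cells; the upstream of its 2 windows) is at chr6:122707239-122707488 on the plus strand. Nr5a2 (a nuclear receptor) is at chr1:136953631-136953880, Zfp42 (the zinc finger factor Rex1) at chr8:43307010-43307259 and Klf13 at chr7:63938916-63939165, all on the minus strand. Birc5 (survivin, a subunit of the chromosomal passenger complex) is at chr11:117848987-117849236 on the plus strand.
Nanog: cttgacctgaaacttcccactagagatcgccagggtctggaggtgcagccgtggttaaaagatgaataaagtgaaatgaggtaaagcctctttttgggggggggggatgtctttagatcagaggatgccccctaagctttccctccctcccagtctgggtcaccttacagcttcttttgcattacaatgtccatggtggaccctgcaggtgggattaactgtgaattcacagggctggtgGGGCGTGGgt
Nr5a2: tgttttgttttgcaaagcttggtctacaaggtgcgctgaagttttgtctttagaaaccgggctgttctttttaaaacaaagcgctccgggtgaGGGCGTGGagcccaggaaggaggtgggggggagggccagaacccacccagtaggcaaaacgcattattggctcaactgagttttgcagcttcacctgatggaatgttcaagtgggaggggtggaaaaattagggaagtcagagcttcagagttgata
Zfp42: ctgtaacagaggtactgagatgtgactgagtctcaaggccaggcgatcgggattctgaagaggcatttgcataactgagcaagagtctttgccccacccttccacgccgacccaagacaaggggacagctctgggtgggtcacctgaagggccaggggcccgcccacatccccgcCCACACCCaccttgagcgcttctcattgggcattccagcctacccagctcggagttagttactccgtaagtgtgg
Klf13: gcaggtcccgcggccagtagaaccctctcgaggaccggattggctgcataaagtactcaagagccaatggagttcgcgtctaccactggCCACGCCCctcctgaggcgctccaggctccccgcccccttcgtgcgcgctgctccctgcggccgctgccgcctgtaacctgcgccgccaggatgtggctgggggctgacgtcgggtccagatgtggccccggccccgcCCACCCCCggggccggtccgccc
Birc5: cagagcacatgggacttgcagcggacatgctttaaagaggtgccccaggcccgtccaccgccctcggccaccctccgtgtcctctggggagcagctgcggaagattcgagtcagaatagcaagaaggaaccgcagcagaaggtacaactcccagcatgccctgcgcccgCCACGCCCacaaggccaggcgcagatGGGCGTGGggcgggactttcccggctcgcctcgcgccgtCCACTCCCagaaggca
Matches numbered 1 in Nanog, Nr5a2 and Zfp42, 2 in Klf13 and 3 in Birc5. A further 8 windows overlapped a peak in all 3 asynchronous lists and in 0 mitotic lists. Of these 8, 1 had a match before the start, that of Tcf7l1. Over all genes, 26.1% of 426 such windows held the motif within their full 300 bases. For contrast, 3 of the 8 are given: those of the cell cycle genes Cdk2 (chr10:128705052-128705301, minus strand) and Cdkn1b (chr6:134920151-134920400, plus strand), which held no match, and that of Tcf7l1 (chr6:72789046-72789295, minus strand), a repressor of Wnt target genes.
Cdk2: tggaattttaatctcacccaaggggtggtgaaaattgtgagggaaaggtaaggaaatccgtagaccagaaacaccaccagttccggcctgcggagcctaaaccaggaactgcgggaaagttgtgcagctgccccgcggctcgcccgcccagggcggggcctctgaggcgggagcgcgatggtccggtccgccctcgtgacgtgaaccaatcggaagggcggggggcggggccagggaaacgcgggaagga
Cdkn1b: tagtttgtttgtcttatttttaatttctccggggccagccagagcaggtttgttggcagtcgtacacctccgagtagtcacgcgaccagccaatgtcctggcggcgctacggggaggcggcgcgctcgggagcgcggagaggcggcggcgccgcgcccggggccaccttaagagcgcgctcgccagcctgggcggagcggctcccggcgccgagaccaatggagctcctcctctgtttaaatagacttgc
Tcf7l1: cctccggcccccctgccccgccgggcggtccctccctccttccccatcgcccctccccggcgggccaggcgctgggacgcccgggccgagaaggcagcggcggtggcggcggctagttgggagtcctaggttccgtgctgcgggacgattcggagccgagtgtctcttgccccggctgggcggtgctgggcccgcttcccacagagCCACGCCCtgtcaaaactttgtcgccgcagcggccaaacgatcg
The Cdk2 and Cdkn1b windows are GC-rich without the GGGNGTGG core, and a window without a match says only that these letters are not in these bases.

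Fewer Klf4 peaks were listed in mitotic cells. The lists held 5754, 3795 and 8438 peaks in mitotic libraries 1, 2 and 3, against 10575, 21307 and 16455 in asynchronous libraries 1, 2 and 3. The means were 5996 ± 2331 in mitotic and 16112 ± 5374 in asynchronous cells (SD, n = 3 each), and the longest mitotic list was shorter than the shortest asynchronous list. The difference was −1.44 on the log2 scale, with p = 0.1 in an exact two-sided permutation test, the smallest p that 3 against 3 libraries allow. Within project EA-3702 the mitotic list held 8438 peaks and the asynchronous list 16455. The lists also differed in how far their peaks stood above the calling threshold. Peaks with a −log10 q of at least 5 numbered 1146, 171 and 3339 in the mitotic lists and 3968, 11983 and 9269 in the asynchronous lists. The strongest peak had a fold enrichment, as the authors deposited it, of 18.8, 13.5 and 28.7 in the mitotic lists and of 48.3, 18.01 and 52.8 in the asynchronous lists. The deposited peak numbers had gaps. They ran up to 24405, 52917 and 16377 in mitotic lists 1, 2 and 3, of which 23.6%, 7.17% and 51.5% were listed. In asynchronous lists 1, 2 and 3 they ran up to 21156, 34682 and 24450, of which 50.0%, 61.4% and 67.3% were listed. The numbers before these gaps thus did not separate the states. Read depth was not given in the sources used here. The parts of depth and of these gaps in the length of a list were not tested.

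Merging the peaks of the 6 lists wherever they shared 1 bp gave 29460 regions. Of these, 13982 had a peak in at least 2 asynchronous lists. Kept regions, which also had a peak in at least 2 mitotic lists, numbered 3758 (26.9%; 95% Wilson interval 26.1 to 27.6). Intermediate regions, with a peak in 1 mitotic list, numbered 4068 (29.1%), and lost regions, with a peak in 0 mitotic lists, numbered 6156 (44.0%). The reverse was rarer in the lists as deposited, where every mitotic list was shorter than every asynchronous one. Of 4155 regions that at least 2 mitotic lists held, 97 (2.33%) had none in any asynchronous list and were called mitotic-only. With lists of equal length, 490 regions were mitotic-only and 833 lost. Intervals cover counting error only, and no test was made on single regions, since 3 lists against 3 cannot pass a threshold over all of them.

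The number of lists decided much of these counts. Without mitotic library 1 kept regions numbered 1921, and without mitotic library 3 they numbered 1822. Mitotic-only regions numbered 30 without mitotic library 1, 49 without library 2 and 28 without library 3, and 241 and 238 without asynchronous libraries 2 and 3. Without asynchronous libraries 1, 2 and 3 in turn, lost regions numbered 3900, 1632 and 3430. When each list was cut to its 3795 strongest peaks, 1542 regions were kept, 860 intermediate and 833 lost, and 490 were mitotic-only.

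**Figure D1:**
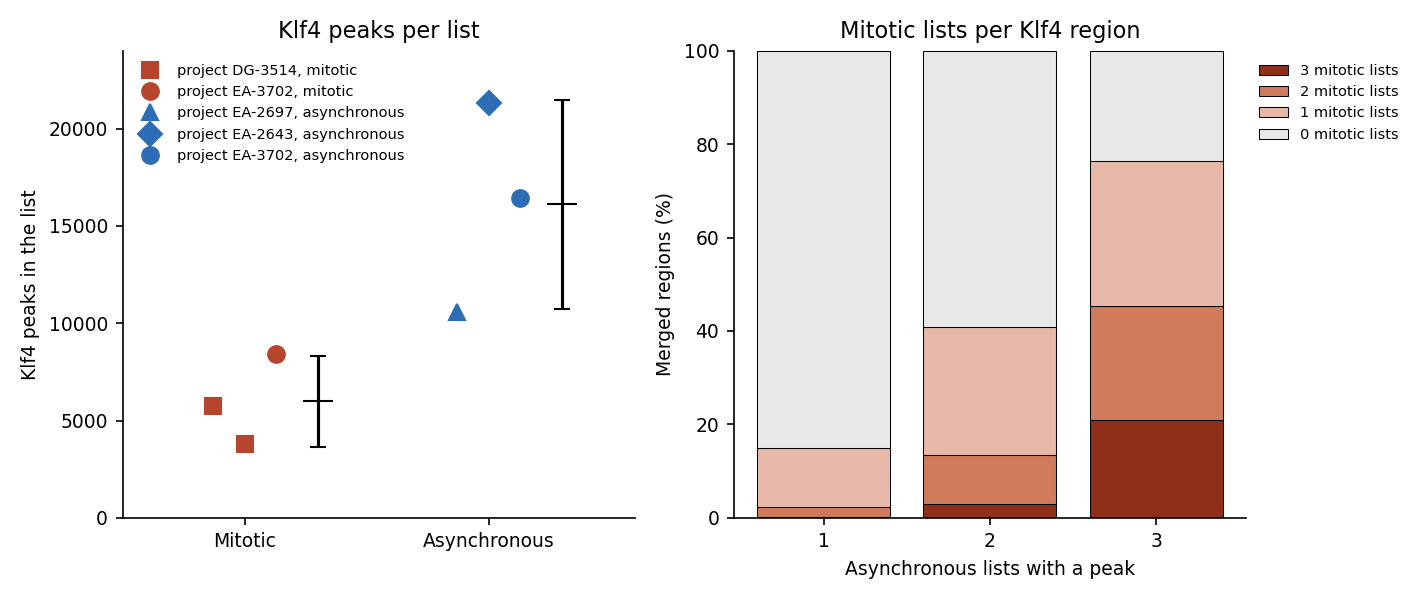
Left, peaks in each Klf4 list (vertical axis) for mitotic (red) and asynchronous (blue) libraries, with the project code by marker and mean ± SD in black (n = 3 each); the 3 mitotic lists lie between 3795 and 8438 and the 3 asynchronous lists between 10575 and 21307. Right, percent of merged regions found in 1, 2 or 3 asynchronous lists that had a peak in 0 to 3 mitotic lists; darker shades, for more mitotic lists, take more of the bar the more asynchronous lists had the region.

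Regions seen in every asynchronous list were spread over all degrees of mitotic retention. Of 5916 regions with a peak in all 3 asynchronous lists, 1392 (23.5%) had a peak in 0 mitotic lists, 1844 (31.2%) in 1, 1437 (24.3%) in 2 and 1243 (21.0%) in all 3. Read from the mitotic side, 9837 of 11830 regions with a peak in any mitotic list (83.2%; 82.5 to 83.8) also had one in an asynchronous list. From the asynchronous side, 9837 of 27467 regions (35.8%) had one in a mitotic list. Regions seen in a single list were 11.2%, 13.9% and 9.30% of those of mitotic lists 1, 2 and 3, and 8.07%, 30.1% and 26.8% of those of asynchronous lists 1, 2 and 3.

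Likeness between lists did not sort by state alone. Among the 3795 strongest peaks of each list, 66.3% of asynchronous list 1 overlapped asynchronous list 2 and 65.7% of list 2 overlapped list 1, the highest shares of any pair. Mitotic list 3 shared 51.2% of these peaks with asynchronous list 2, which had 51.3% in common with it. Mitotic lists 1 and 2, of the same project, shared 41.6% and 45.4% of their peaks. Over the 1243 regions with a peak in all 6 lists, Spearman's rho of the deposited fold was 0.67 between asynchronous lists 1 and 2, 0.56 between mitotic list 3 and asynchronous list 2 and 0.30 between mitotic lists 1 and 2. The lowest value, 0.18, was that of mitotic list 2 and asynchronous list 1. These values are descriptions over regions of the same libraries and carry no test.

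The strongest retained sites lay inside a gene or up to 83.85 kb from the nearest one, and these genes were of varied function. The region inside Kmt2a, which encodes a histone H3 lysine 4 methyltransferase, at chr9:44881202-44881846, ranked highest by its place in the mitotic lists. Its deposited fold was 16.8, 13.5 and 7.31 in mitotic lists 1, 2 and 3, against 16.2, 12.3 and 8.09 in asynchronous lists 1, 2 and 3. It was thus the top peak of mitotic list 2, and in project EA-3702 it stood at percentile 86.9 of the mitotic and 79.5 of the asynchronous list. A region inside Src, a tyrosine kinase gene (chr2:157456908-157457942), had folds of 13.5, 7.90 and 18.9 in the mitotic lists and 29.1, 13.97 and 27.01 in the asynchronous lists. A region 26.1 kb from Cd9, which encodes a tetraspanin of the cell surface (chr6:125433398-125434209), had folds of 15.9, 10.1 and 13.2 in the mitotic lists and 22.7, 11.3 and 18.8 in the asynchronous lists. The region 32.5 kb from Grap, an adaptor of receptor signalling (chr11:61619814-61620869), had the highest folds of these 10 in each asynchronous list and in mitotic list 3, at 10.6, 11.5 and 28.2 in the mitotic lists and 48.3, 18.01 and 49.8 in the asynchronous lists. The other 6 lay inside Sipa1l3, Atrnl1 and Ddx60, and 83.85 kb from Zfp236, 17.1 kb from Rab29 and 41.9 kb from Tpcn2. Of the 10 regions, 9 had H3K27ac in both asynchronous lists and 8 in both mitotic lists, the region inside Atrnl1 in neither. Among all 1243 regions with a peak in all 6 lists these shares were 89.9% and 73.5%. With only peaks of a −log10 q of at least 5, 29 of their 30 mitotic peaks were still listed.

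The strongest asynchronous sites with no mitotic peak lay inside a gene or up to 13.7 kb from one, again of varied function. The region inside Cldn4, a claudin of tight junctions (chr5:134945185-134945685), had folds of 15.8, 7.76 and 9.30 in the asynchronous lists. A region 13.7 kb from Pard6b, a subunit of the apical polarity complex (chr2:168114930-168115406), had 12.1, 10.4 and 6.94. Shroom3, a regulator of apical constriction, had such a region within the gene (chr5:92812783-92813233) with 10.0, 7.42 and 5.09. The highest fold was that of the region inside Amotl2, a membrane-associated angiomotin (chr9:102717517-102717985), with 18.96, 8.10 and 5.40. The other 6 were nearest to Ank2, Zfp296, Phyhip, Pbx3, Fbxw8 and Myo15. Cldn4 also had a region 4.72 kb away (chr5:134939327-134940406) in all 6 lists, with folds of 5.29, 4.72 and 3.69 in the mitotic lists and 5.34, 5.70 and 5.43 in the asynchronous lists.

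Few mitotic-only regions were shared by every mitotic list. Of the 97, 5 had a peak in all 3 mitotic lists. The first of these by rank lay 6.96 kb from Arl14epl (chr18:46914426-46914852), with folds of 6.74, 6.07 and 4.36 in mitotic lists 1, 2 and 3. Next came a region 67.9 kb from Zfp600, with 4.21, 5.11 and 5.79, and one 0.29 kb from Syt5, a synaptotagmin (chr7:4538975-4539476), with 4.33, 4.72 and 6.97. The highest fold among the 10 named, 11.7 in mitotic list 3, was that of a region 286.5 kb from Adamts5, which had 5.29 in mitotic list 1 and no peak in list 2. The others were nearest to Rab11fip4, Zfp980, Slc6a12, Fermt2, 1190005I06Rik and Tcte2. Of the 25 mitotic peaks in these 10 regions, 9 had a −log10 q of at least 5.

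**Figure D2:**
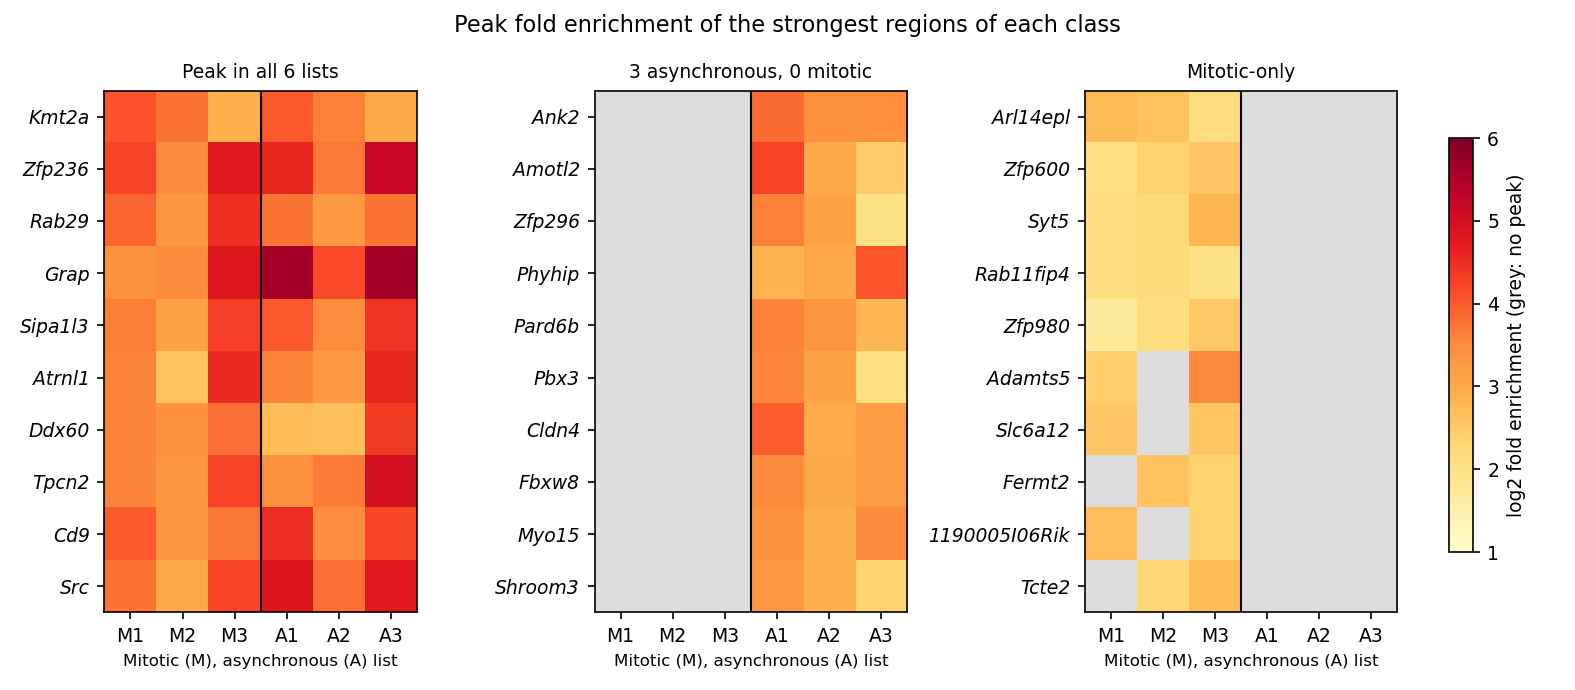
Deposited fold enrichment (log2 colour scale) in mitotic lists M1 to M3 and asynchronous lists A1 to A3 of the 10 highest-ranked regions with a peak in all 6 lists, in 3 asynchronous and 0 mitotic lists, or in mitotic lists only, each row named by the nearest protein-coding gene; grey means no peak. The palest cell is that of Zfp980 in M1, and the darkest are those of Grap in A1 and A3.

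The pair of libraries of project EA-3702 was also merged on its own. Of its 18763 regions, 6038 (32.2%) had a peak in both states, 2361 (12.6%) in the mitotic list only and 10364 (55.2%) in the asynchronous list only. The lists also differed in length, with 8438 mitotic and 16455 asynchronous peaks. With the asynchronous list cut to its 8438 strongest peaks, 4591 regions had a peak in both states. The mitotic list alone then held 3808 and the asynchronous list alone 3830. Equal list lengths bring these 2 numbers close together by construction, so the part of length in the imbalance was not tested. In the lists as deposited, 6077 of 8438 mitotic peaks (72.0%, interval 71.1 to 73.0) overlapped an asynchronous peak. Of 16455 asynchronous peaks, 6091 (37.0%, interval 36.3 to 37.8) overlapped a mitotic one. Recovery followed the strength of the peak. In 5 classes of equal size, from the weakest to the strongest by −log10 p, 54.6%, 63.4%, 71.9%, 77.7% and 92.5% of mitotic peaks had an asynchronous peak. The same classes of the asynchronous list had a mitotic peak in 13.04%, 22.1%, 27.3%, 45.9% and 76.7%. The median deposited fold in the mitotic list was 4.89 at shared regions and 4.67 at regions of that list alone. In the asynchronous list it was 7.23 at shared regions and 4.92 at regions of that list alone.

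The other 4 lists show how far the pair's classes carried over to other projects. Of the 2361 regions with a mitotic peak only, 1507 (63.8%; 61.9 to 65.7) had an asynchronous peak in project EA-2697 or EA-2643, 474 (20.1%) had a mitotic peak in project DG-3514 and 779 had none in any other list. Of the 10364 regions with an asynchronous peak only, 5643 (54.4%) had an asynchronous peak of another project and 1777 (17.1%; 16.4 to 17.9) a mitotic peak of project DG-3514. Of the 6038 shared regions, 5450 (90.3%) and 3256 (53.9%) did. The strongest region of the pair with a mitotic peak only lay 11.9 kb from Slc1a3, a glutamate transporter gene (chr15:8722674-8723249), had a fold of 13.4 in the mitotic list, and was also listed in mitotic library 1 and in asynchronous libraries 1 and 2. The strongest region with an asynchronous peak only, inside Vps35, a subunit of the retromer (chr8:85299101-85299823), had a fold of 21.4 there and was also listed in mitotic libraries 1 and 2. Of the 5 strongest regions of the pair with an asynchronous peak only (Vps35, Cmtm6, Iscu, Sp2 and Pacs2), 4 had a mitotic peak in project DG-3514. The shared region with the highest mitotic fold, inside Pcolce2 (chr9:95676280-95677026), had a fold of 28.7 in the mitotic and 20.1 in the asynchronous list and was in all 6 lists.

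The 2 classes of the pair lay in different places. A gene end lay within 1 kb of 11.99% of regions with a mitotic peak only, of 39.1% of those with an asynchronous peak only and of 37.7% of shared ones. An Oct4 peak of asynchronous cells overlapped 10.4%, 2.12% and 8.21% of the same 3 classes, and a Sox2 peak 12.5%, 1.21% and 8.60%. H3K27ac of both asynchronous lists overlapped 56.1%, 50.97% and 74.2%. Each state had 1 library here, so these are descriptions of that pair with no replicate check.

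Regions retained in more mitotic lists more often had active chromatin and partner factors. Among regions in all 3 asynchronous lists, H3K27ac of both asynchronous lists overlapped 64.5% of those in 0 mitotic lists, 73.6% of those in 1, 84.3% in 2 and 89.9% in all 3. H3K27ac of both mitotic lists, which were of project DG-3514 like mitotic Klf4 lists 1 and 2, overlapped 39.4%, 47.7%, 63.0% and 73.5% in the same order. Oct4, a POU factor, overlapped 5.24%, 6.62%, 9.67% and 15.0%, and Sox2, an HMG box factor, 2.66%, 5.26%, 10.4% and 16.3%. The share near a gene end varied less, at 40.9%, 39.0%, 44.5% and 45.9%. Over all 29460 regions these shares were 53.6% with H3K27ac of asynchronous cells, 6.01% with Oct4, 5.60% with Sox2 and 29.5% near a gene end. Strength and width moved with the number of mitotic lists as well. The median percentile of fold within the asynchronous lists was 54.2, 66.3, 78.0 and 87.2, and the median width of the merged region was 415.5, 474, 565 and 684 bp. A merged region spans the peaks of all its lists, so its width can grow with each further mitotic list by construction. Wider regions meet other features more often by construction, and the part of width was not tested.

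The H3K27ac difference was present at every strength. In 5 classes of these asynchronous regions, from the weakest to the strongest, 76.6%, 88.9%, 87.8%, 90.5% and 92.1% of regions in all 6 lists had H3K27ac of asynchronous cells. Regions in 0 mitotic lists had it in 61.7%, 66.0%, 65.8%, 66.9% and 68.3%, the last over 41 regions. Regions in all 6 lists were also the wider ones in each class, with medians of 628.5 against 392 bp in the weakest and 693 against 469 bp in the strongest. Oct4 and gene ends did not keep one direction, while Sox2 did. Oct4 overlapped 10.9%, 7.41%, 7.14%, 14.2% and 20.04% of regions in all 6 lists and 3.28%, 6.07%, 7.98%, 3.18% and 12.2% of those in 0 mitotic lists, lower for regions in all 6 lists in the third class. Sox2 overlapped 6.25%, 11.1%, 5.61%, 10.8% and 25.2% of regions in all 6 lists and 1.73%, 2.43%, 4.56%, 1.27% and 9.76% of those in 0 mitotic lists. Sox2 thus was higher in each class, by the least in the third. A gene end lay near 40.6%, 58.3%, 60.2%, 56.01% and 33.3% of regions in all 6 lists and 45.5%, 43.4%, 36.9%, 31.2% and 21.95% of those in 0 mitotic lists, lower for regions in all 6 lists in the weakest class. For H3K27ac, Oct4 and Sox2 each mitotic list gave the same direction on its own. The share among asynchronous regions found in a mitotic list minus that among regions not found there came to 20.4 ± 2.498 percentage points for H3K27ac, 4.40 ± 0.41 for Oct4 and 5.46 ± 0.42 for Sox2 (SD over the 3 mitotic lists). For gene ends the mean was 9.30 ± 8.62, with −0.61 for the mitotic list of project EA-3702. That mean was 1.96 without asynchronous library 2 and 5.37 without asynchronous library 1, against 14.2 without mitotic library 3.

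**Figure D3:**
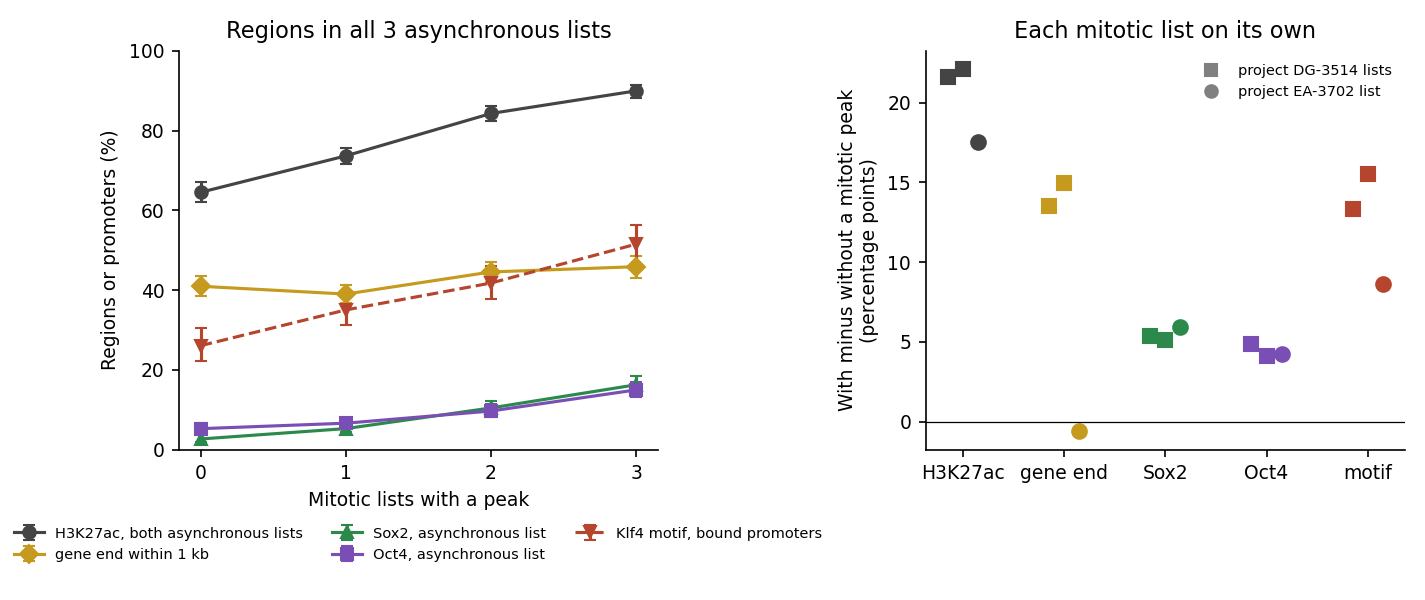
Left, percent of regions (or of bound promoters, for the motif) found in all 3 asynchronous lists that had each feature, by the number of mitotic lists with a peak; bars are 95% Wilson intervals. Right, difference in percentage points between regions with and without a peak in each mitotic list (squares, project DG-3514; circle, project EA-3702); all values lie above 0 apart from −0.61 for gene ends in project EA-3702.

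The Klf4 motif was more frequent at retained promoters. Of all 21263 promoter windows, 19.4% held GGGNGTGG on either strand, as did 14.3% of the 14709 windows that overlapped no Klf4 peak. It was present in 610 of 1364 kept promoters (44.7%; 42.1 to 47.4), in 34.6% of intermediate and in 392 of 1463 lost promoters (26.8%; 24.6 to 29.1). For windows in all 3 asynchronous lists the share was 26.1%, 35.0%, 41.8% and 51.5% with 0, 1, 2 and 3 mitotic lists. By mitotic list, asynchronous promoters with a mitotic peak minus those without differed by 12.5 ± 3.52 percentage points (SD over the 3 mitotic lists). The form GGGCGTGG was in 29.3% of kept and 14.4% of lost promoters, and GGGTGTGG in 8.80% and 4.24%. GC content was close, with a median of 66.7% in kept, 65.3% in lost and 52.0% in unbound windows. Kept windows held the motif more often in each class of GC content, at 45.2% against 27.5% of lost windows up to 60% GC, 48.5% against 24.3% from 60 to 65%, 45.0% against 31.7% from 65 to 70% and 41.6% against 24.2% above 70%. CCAAT, the site of the factor NF-Y, was in 32.8% of kept and 32.8% of lost windows. GGGGCGGGG, a GC box of the Sp factors, was in 40.0% of kept and 33.1% of lost windows. It can overlap the Klf4 core in part. Regions in more mitotic lists were also stronger in asynchronous cells, as given above, and the motif shares were not set against strength.

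The composition of whole lists showed fewer differences between the states. H3K27ac of asynchronous cells overlapped 74.96%, 71.0% and 71.3% of peaks of mitotic lists 1, 2 and 3 and 67.4%, 61.5% and 63.0% of peaks of asynchronous lists 1, 2 and 3. The groups did not overlap, and the mean difference of 8.45 percentage points had p = 0.1 in an exact permutation test (Benjamini-Hochberg adjusted p = 0.3 over 9 measures). H3K27ac of mitotic cells overlapped 59.99%, 58.5% and 51.1% of mitotic and 49.4%, 42.9% and 44.5% of asynchronous peaks, a difference of 10.9 with the same p. The motif was in 39.4%, 44.1% and 37.7% of promoters bound in mitotic lists. In asynchronous lists it was in 36.4%, 33.4% and 32.6%, a difference of 6.30 with the same p. The H3K27ac lists of mitotic cells carried the project code of mitotic Klf4 lists 1 and 2, DG-3514. State and project cannot be told apart there. Within project EA-3702 the difference for that mark was 6.60 points. At equal length the difference turned to −3.13 for H3K27ac of asynchronous cells, was 0.65 (exact permutation p = 1.0) for H3K27ac of mitotic cells and 2.51 for the motif, and the groups then overlapped for all 3. Oct4 was at 9.35%, 8.49% and 8.70% of mitotic and 9.54%, 7.47% and 4.30% of asynchronous peaks, and Sox2 at 9.40%, 8.72% and 9.61% of mitotic and 8.79%, 6.85% and 3.84% of asynchronous peaks, with overlapping groups for Oct4 (exact permutation p = 0.4, adjusted 0.514) and for Sox2 (p = 0.2, adjusted 0.45).

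Gene ends differed between the states in opposite directions within project EA-3702 and between the other projects. They lay within 1 kb of 42.4%, 42.8% and 30.4% of peaks of mitotic lists 1, 2 and 3 and of 33.2%, 30.1% and 38.5% of peaks of asynchronous lists 1, 2 and 3. The pooled difference of 4.596 points had p = 0.3 in an exact permutation test (adjusted p = 0.514). Within project EA-3702 the mitotic list was 8.04 points lower than the asynchronous list, and between the other projects the mitotic mean was 10.9 points higher.

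**Figure D4:**
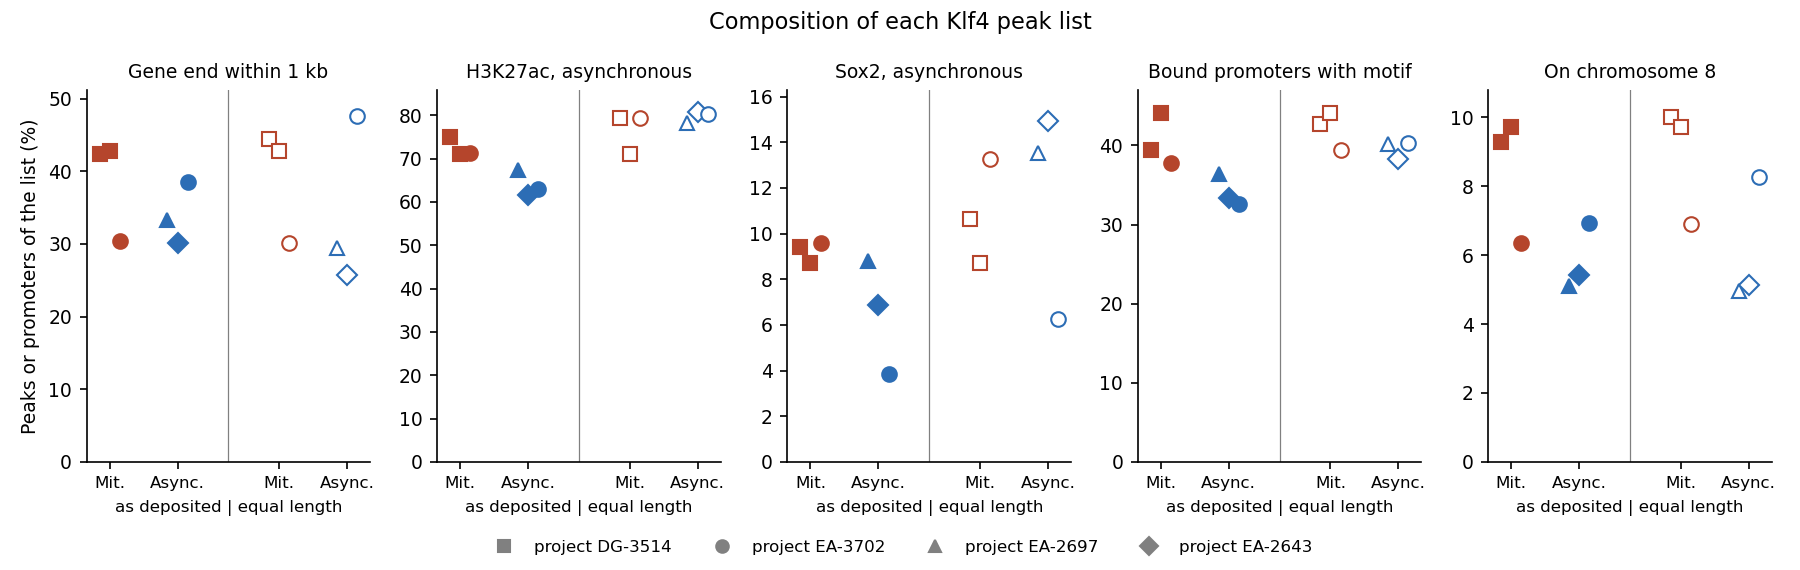
Percent of the peaks of each Klf4 list (of bound promoters, for the motif) with a gene end within 1 kb, H3K27ac, Sox2, the motif, or on chromosome 8, in mitotic (red) and asynchronous (blue) libraries, with lists as deposited (filled) and at equal length (open), and project codes by marker. Circles, both of project EA-3702, have the mitotic list below the asynchronous one for gene ends, at 30.4% and 38.5%.

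Chromosome 8 held more retained Klf4 sites than the other autosomes. On it 316 of 813 asynchronous regions were kept (38.9%; 35.6 to 42.3), against 23.8% to 28.6% on each of the other autosomes, while 19 of 143 were kept on X (13.3%; 8.67 to 19.8). The chromosome was singled out after its values were seen. It held 9.30%, 9.72% and 6.36% of the peaks of mitotic lists 1, 2 and 3 and 5.12%, 5.42% and 6.93% of those of asynchronous lists 1, 2 and 3, a difference of 2.64 points (exact permutation p = 0.2). The high values were both of project DG-3514, and within project EA-3702 the mitotic share was 0.57 points lower. H3K27ac moved alike, with 6.36% and 6.56% of peaks on chromosome 8 in the mitotic lists, both of project DG-3514, and 4.82% and 4.85% in the asynchronous lists, both of project DG-3458. Retention on chromosome 8 was high in each mitotic list, but least so in project EA-3702. A peak was found at 44.8% of its asynchronous regions in mitotic list 1, 29.8% in list 2 and 48.7% in list 3, against 29.4%, 18.2% and 43.9% of regions elsewhere. Without chromosome 8, 3442 of 13169 regions were kept (26.1%). What these libraries of project DG-3514 share was not tested.

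**Figure D5:**
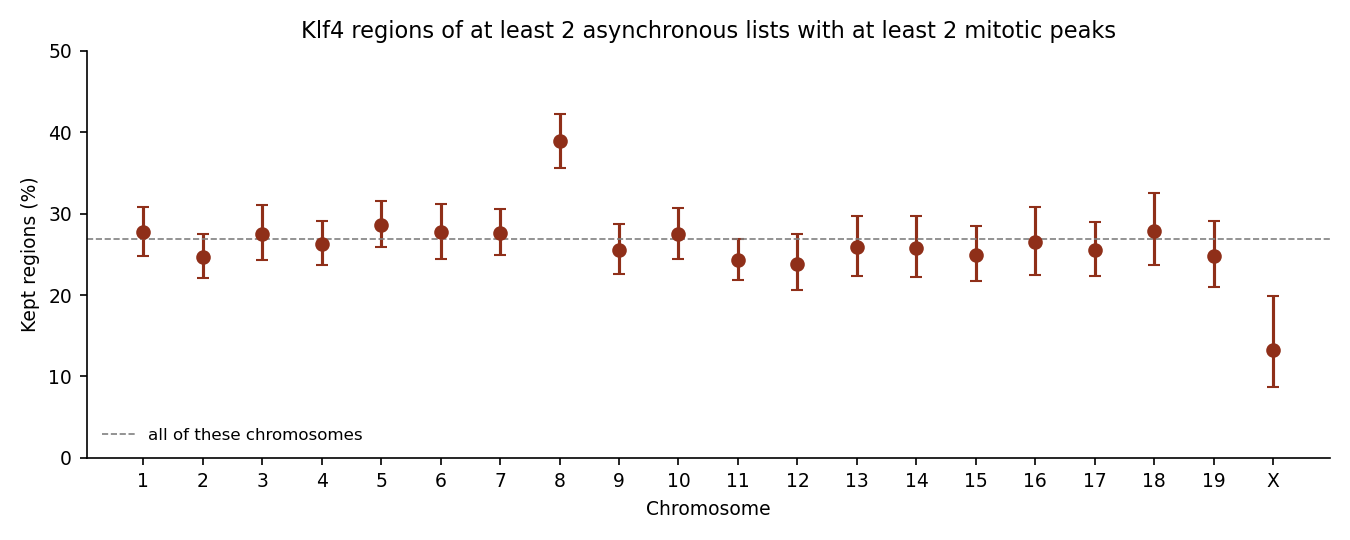
Percent of Klf4 regions of at least 2 asynchronous lists that were kept, by chromosome, with 95% Wilson intervals and the share over the chromosomes drawn as a dashed line. Chromosome 8 stands at 38.9% and X at 13.3%, and the other autosomes lie between 23.8% and 28.6%.

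Genes were linked to every region inside them or within 20 kb. Of 21887 protein-coding genes, 11111 (50.8%) were linked to an asynchronous region. Of these 11111, 4820 (43.4%) had at least 1 kept region, 1875 (16.9%) had a region in all 6 lists, and 3145 (28.3%) had only lost regions. A gene with only lost regions is one whose linked regions of at least 2 asynchronous lists were all lost; regions of fewer asynchronous lists were not counted. Without mitotic libraries 1 and 3 in turn, 2741 and 2716 genes had a kept region. Genes with the most regions in all 6 lists were Gse1, with 4 such among 13 linked regions, and Dnaaf5 with 4 among 5. Nacc1, Ier2 and Myo9b had 3 each, as did Pakap, Actb, Notch1 and Trak1. Longer genes can hold more regions, and a gene with more linked regions more easily has a kept one by construction. Counts and shares per gene, here and for the gene lists below, were not set against length or number of regions.

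All 30 genes of the naive pluripotency list were linked to an asynchronous Klf4 region, and 21 had a kept region (beside 43.4% of all linked genes). Of the 30, 10 had a region in all 6 lists (beside 16.9%) and 2 (Nr0b1 and Utf1) had only lost regions (beside 28.3%). The 10 were Nanog, Klf2, Zfp42, Nr5a2, Fgf4, Tdgf1, Fbxo15, Tet2, Mycn and Rif1. At Nanog the region at the promoter printed above (chr6:122707269-122707642) had folds of 5.77, 4.72 and 5.71 in mitotic lists 1, 2 and 3 and 9.61, 4.57 and 5.20 in asynchronous lists 1, 2 and 3. A region 4.23 kb from the gene (chr6:122702329-122703260) had 6.92, 5.39 and 9.08 in the mitotic lists and 9.83, 7.50 and 9.99 in the asynchronous lists. The strongest of the list was inside Fbxo15, a target gene of Oct4 and Sox2 (chr18:84933893-84935173), with 10.4, 6.74 and 16.6 in the mitotic and 23.9, 10.4 and 45.7 in the asynchronous lists. It overlapped Oct4 and Sox2 peaks and H3K27ac of both states. Zfp42 had its promoter region (chr8:43306771-43307382) at 4.42, 5.72 and 10.0 in the mitotic lists and 7.37, 9.16 and 21.3 in the asynchronous lists. Pou5f1, which encodes Oct4, had no region in all 6 lists. Of its 4 linked regions 2 were kept. The kept one 1.74 kb away (chr17:35503791-35504292) had peaks in mitotic lists 1 and 3, at 7.70 and 5.84. Its folds were 10.48, 10.4 and 3.53 in the asynchronous lists. Sox2 had a kept region 1.48 kb away (chr3:34653945-34654257), with 5.29 and 4.39 in mitotic lists 1 and 3 and 5.78 and 4.59 in asynchronous lists 1 and 2. Of these 30 genes, between 10 and 20 had a kept region when 1 mitotic library was left out, 13 without library 1 and 10 without library 3.

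Genes of the Klf and Sp family, whose factors bind the same kind of GC-rich site, were linked in 21 of 25 cases. A kept region was linked to 15 (71.4% of those linked, beside 43.4%) and a region in all 6 lists to 10 (beside 16.9%). These 10 were Klf1, Klf2, Klf3, Klf10, Klf11, Klf12, Klf13, Klf16, Sp1 and Sp3, and Sp7 had only lost regions. The promoter region of Klf3 (chr5:64802732-64803741) had folds of 8.18, 6.74 and 15.3 in the mitotic and 16.8, 7.01 and 43.7 in the asynchronous lists. Klf12 had one within the gene (chr14:100284412-100285935) with 8.18, 6.07 and 11.4 in the mitotic and 7.86, 6.74 and 14.3 in the asynchronous lists. The region over the printed Klf13 window (chr7:63938341-63940243) had 9.14, 5.39 and 4.96 in the mitotic and 10.0, 8.11 and 21.3 in the asynchronous lists. Klf4 itself had a kept region 11.9 kb away, at 6.49 and 3.98 in mitotic lists 1 and 3 and 7.38, 4.39 and 5.39 in the asynchronous lists. The region at its gene end (chr4:55532156-55533102) was intermediate, with a peak in mitotic list 2 alone, at 4.52.

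Of 30 genes of epithelial junctions and polarity, 27 were linked and 15 had a kept region (55.6% of those linked, beside 43.4%). A region in all 6 lists was linked to 7 (beside 16.9% of all linked genes), among them Cldn4, Grhl2 and Jup. The region inside Grhl2, a factor that activates junction genes (chr15:37289632-37290186), had folds of 5.29, 5.65 and 8.38 in the mitotic and 15.8, 13.02 and 21.0 in the asynchronous lists. That inside Jup, which encodes plakoglobin (chr11:100375966-100376377), had 4.33, 5.39 and 6.23 in the mitotic and 16.2, 9.66 and 8.72 in the asynchronous lists. Krt18, Esrp1, Pard6b, Spint1 and Llgl2 had only lost regions by this count. Pard6b also held a region of a single asynchronous list within the gene (chr2:168080585-168081161), with folds of 4.81 and 3.48 in mitotic lists 1 and 3 and 4.63 in asynchronous list 3. Cdh1, which encodes E-cadherin, had none that was kept: its 5 asynchronous regions comprised 4 intermediate ones and 1 lost one. Of the list, 9 genes had a kept region without mitotic library 1 or without mitotic library 3.

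Of 28 genes of LIF, Bmp, Wnt, Nodal and Fgf signalling, 22 were linked and 14 had a kept region (63.6% of those linked, beside 43.4%). A region in all 6 lists was linked to 7 (beside 16.9% of all linked genes). Nodal, a ligand of the Tgf-beta family, had one 0.94 kb away (chr10:61415693-61417036) at 8.66, 6.74 and 11.4 in the mitotic and 22.1, 9.08 and 10.7 in the asynchronous lists. Etv5, an ETS factor downstream of Fgf signalling, had one within the gene (chr16:22402570-22403148) at 6.26, 5.39 and 6.71 in the mitotic and 5.65, 2.299 and 19.7 in the asynchronous lists. Pim1, Bcl3 and Junb, all targets of LIF and Stat3 signalling, were also among the 7, with Id3 and Tcf7l1. Jak1, the kinase of the LIF receptor, had only lost regions, as had Gbx2, Bmp4, Id2, Smad7 and Tcf7. The Tcf7l1 region with all 6 peaks (chr6:72787223-72787852) was another than the lost one over the printed window. Without mitotic libraries 1 and 3 in turn, 8 and 9 of the 28 genes had a kept region.

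Cell cycle genes were counted by phase. Of 20 genes of G1 and S phase, 19 were linked and 9 had a kept region (47.4% of those linked, near the 43.4% of all linked genes). A region in all 6 lists was linked to 4 (Ccnd2, Ccne1, Cdkn1a and Rbl2), beside 16.9% of all linked genes. Without mitotic libraries 1 and 3 in turn, 5 and 4 had a kept region. At Cdkn1a, which encodes the inhibitor p21, the promoter region (chr17:29093413-29094016) had 4.76, 6.07 and 4.78 in the mitotic and 4.52, 4.36 and 7.28 in the asynchronous lists. Cdkn1b, which encodes the inhibitor p27, had 3 linked regions and all 3 were lost, including the one over the window printed above, with folds of 4.92, 3.12 and 4.92 in the asynchronous lists. Cdkn2a and E2f3 had only lost regions too. Of 20 genes of the mitotic machinery, 13 were linked, 3 had a kept region and 8 (Cdk1, Bub1, Bub1b, Cdc20, Kif11, Incenp, Ttk and Espl1) had only lost regions. These 3 and 8 of 13 compare with 43.4% and 28.3% of all linked genes, and were not tested. The exception, Birc5, had its promoter region in all 6 lists (chr11:117848813-117849447), at 6.74, 4.52 and 4.72 in the mitotic and 8.86, 4.50 and 8.41 in the asynchronous lists. Aurka and Aurkb, the Aurora kinases, had a kept region 10.475 kb and 7.72 kb away. Cdk1 had a region at its gene end (chr10:69352803-69353383) with folds of 4.50 and 8.49 in asynchronous lists 2 and 3 and no mitotic peak.

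Genes picked for other reasons gave a scale for these counts. Beside them stand the shares over all genes, of which 50.8% were linked. Of all linked genes 43.4% had a kept region, 16.9% a region in all 6 lists and 28.3% only lost regions. Of 17 housekeeping genes 12 were linked, 8 had a kept region (66.7% of those linked) and 5, among them Actb and Tubb5, one in all 6 lists, and 5 had a kept region without mitotic library 1 or without mitotic library 3. Of 14 germ layer and primed regulators 5 were linked, 1 (Eomes) had a kept region, and Gata6, Gsc and Pou3f1 had only lost regions; the count was 0 without mitotic library 1 or 3 or asynchronous library 2 or 3. Of 19 fibroblast markers 6 were linked and 4 had a kept region (2 without mitotic library 1 or without mitotic library 3), and Fn1, the fibronectin gene, had one in all 6 lists with 8.18, 6.07 and 7.94 in the mitotic and 9.63, 8.70 and 16.3 in the asynchronous lists. Of 14 neural progenitor markers 8 were linked and 3 had a kept region, with 0 and 1 without mitotic libraries 1 and 3 and 1 without asynchronous library 2. With only peaks of a −log10 q of at least 5, a kept region was linked to 7 genes of naive pluripotency, 8 of the Klf and Sp family, 0 of epithelial junctions, 8 of signalling, 3 of G1 and S phase, 2 of the mitotic machinery and 4 housekeeping genes, and to 0 germ layer, 1 fibroblast and 1 neural progenitor gene. At equal length these counts were 13, 8, 6, 8, 5, 1 and 4, and 0, 2 and 1, in the same order. Over all genes, 989 of 7428 linked genes had a kept region with the q minimum and 2124 of 3847 at equal length. How many genes of each list were linked under these 2 settings is not given here. The lists are small, and their counts describe them without a test.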

How the data were processed

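Klf4 ChIP-seq lists of 3 mitotic and 3 asynchronous libraries were read, and 1 list of a cell mix was left out. The submitters' processing notes name cutadapt 1.8.1, Bowtie2 2.2.5 (build mm10), MACS2 2.1.1 and deepTools 2.3.6. Every deposited list held the peaks of 1 library. In the deposited lists the authors gave each peak a fold (a ratio of signal to background) and a −log10 of its p and q, with a −log10 p of at least 5. The deposited score column was not used as a measure. Gaps in the peak numbers left 23.6%, 7.17% and 51.5% of numbered peaks in the mitotic lists and 50.0%, 61.4% and 67.3% in the asynchronous lists. Folds rank peaks within a list. Read depth is not given in the sources used here, so only counting intervals can be given.

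Peaks of the 6 lists sharing at least 1 bp were merged, and features were scored by an overlap of 1 bp with the H3K27ac, Oct4 and Sox2 lists. Genes and promoters came from RefSeq tables of GRCm38.p6, with 21887 protein-coding genes (no strand, hence gene ends in place of starts) and 21263 promoter windows of 17492 genes. Per-list values were compared by exact two-sided permutation over libraries, with Benjamini-Hochberg adjustment over 9 measures. The genome sequence was not used here, so motifs were read in promoter windows only. Strength was the median percentile of fold within the asynchronous lists. For equal length, each list was cut to its 3795 strongest peaks by −log10 p, and the lists of the pair on its own to 8438. Alternatives were a −log10 q of at least 5, equal length, each library left out, both of project DG-3514 left out, other retention, overlap and distance rules, and chromosome 8 left out, the last added after the data were seen. Regions were named by rank of fold within class, and genes by regions in all 6 lists or only lost ones. The members and gene lists were chosen with earlier results of these data known. Merging and counting were tested on simulated lists. Python 3.11.15, numpy 2.4.6, pandas 2.3.3, scipy 1.17.1, statsmodels 0.14.6 and matplotlib 3.10.9 were used.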

Additional observations from a re-analysis of the deposited data

Results flagged for a closer look

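With lists as deposited, for 4 shares of peaks the mitotic minus asynchronous difference had one sign within project EA-3702 and the other sign between the remaining projects, and these differences between projects were not tested. For peaks with a gene end within 1 kb it was −8.04 percentage points within project EA-3702 and 10.9 between the other projects. For peaks inside a gene it was −7.63 within project EA-3702 and 2.83 between the other projects. For peaks on chromosome 8 it was −0.57 within project EA-3702 and 4.24 between the other projects. For peaks on chromosome X it was 0.0134 within project EA-3702 and −0.49 between the other projects. At equal length these 4 kept opposite signs. Oct4 (4.98 within project EA-3702 and −5.90 between the others), Sox2 (7.01 and −4.57), the promoter motif (−0.93 and 4.24) and H3K27ac of mitotic cells (−1.30 and 1.62) then had opposite signs too. Project EA-3702 had 1 library of each state, and the others had 2 of each.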

How the results depend on the processing

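The log2 difference in peaks per list stayed below 0 under every alternative run. With a −log10 q of at least 5, regions kept, intermediate and mitotic-only numbered 699, 2084 and 6, and those of the project EA-3702 pair 2490 in both lists, 842 mitotic only and 6760 asynchronous only. At equal length, kept, intermediate, lost and mitotic-only regions numbered 1542, 860, 833 and 490, and the pair had 3808 mitotic-only and 3830 asynchronous-only regions. Without both lists of project DG-3514, which leaves 1 mitotic list whose peak sufficed, kept, intermediate and mitotic-only regions numbered 6183, 0 and 854. Kept regions numbered 7826 when 1 mitotic list was enough and 1474 when 3 were needed, which left 6352 intermediate. Leaving out 1 library gave 1822 to 3425 kept, 1937 to 4980 intermediate, 1632 to 8951 lost and 28 to 241 mitotic-only regions, 7027 to 11110 linked genes and 2716 to 4557 genes with a kept region. Genes linked to an asynchronous region numbered 3847 at equal length, and genes with a kept region 989 with the q minimum, 2124 at equal length and 3192 within 5 kb.

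Differences between lists in percentage points turned at equal length to −3.13 (H3K27ac of asynchronous cells), −2.27 (Oct4) and −0.71 (Sox2). With the q minimum gene ends turned to −0.88 and the median width to 41.3 bp. Without project DG-3514 gene ends turned to −3.49, chromosome X to 0.188 and the width to 92.7 bp. Leaving out 1 library gave −2.44 to 1.57 inside genes and −51.3 to 58.2 bp in width, around 0 in each case. For regions with minus without a mitotic peak, the q minimum, equal length and no project DG-3514 gave 14.3, 11.5 and 17.6 for H3K27ac, 13.1, 6.41 and 5.92 for Sox2 and −2.17, 8.97 and −0.62 for gene ends. Oct4 gave 7.64 and 2.84 under the first 2, and the promoter motif 18.7 with the q minimum and 8.63 without project DG-3514. Leaving out 1 library gave 15.6 to 22.0 for H3K27ac, 3.44 to 5.56 for Oct4, 5.19 to 7.70 for Sox2 and 1.96 to 14.2 for gene ends. The causes were not tested, apart from the fewer peaks or lists that some alternatives leave by construction. No paired analysis was possible because only project EA-3702 held Klf4 lists of both states. A fit with project as a term would take its state difference from that pair alone and was not run; the pair's differences are given with the results above. Without chromosome 8 all 35 values recomputed kept their direction, and counts stayed within 1.5 times.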
